A study of Mus musculus with 4 samples.

Results

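The 10 genes described here encode secreted Wnt ligands (Wnt4, Wnt5a, Wnt5b, Wnt7b and Wnt10a), a ligand that strengthens Wnt signals (Rspo1), secreted inhibitors (Wif1 and Sfrp1) and the co-receptors Lrp5 and Lrp6. They were taken as a list of named genes, and all 10 were found among the 31053 genes of the count matrices. Single-cell 3′ RNA libraries had been made from mouse mammary epithelial cells to follow what conditional loss of Tfap2c, the gene of the transcription factor AP-2γ, does to mammary stem cells. There were 4 libraries, 2 from mice given corn oil and 2 from mice given 4OHT, 4-hydroxytamoxifen, the drug that activates CreERT2. All mice were FVB, carried Tfap2cfl/fl and Krt5-CreERT2 whichever injection they had, and were harvested at post natal week 9. Injections were daily and began at week 4; the treatment label gives 5 days and the protocol text gives a longer course. The Krt5 promoter drives Cre in basal keratinocytes and basal mammary cells, and corn oil mice carry the same floxed allele and the same Cre, without the activating drug. The labels do not say how many animals stand behind a library.

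Wnt proteins are lipid-modified in the secreting cell by Porcn, are carried out by Wls, and bind Frizzled receptors on a nearby cell. Binding together with Lrp5 or Lrp6 stabilises beta-catenin, whereas Wnt5a and related ligands mostly act through Ror and Ryk receptors without it. In the mammary gland, luminal cells that carry hormone receptors secrete Wnt4 in response to progesterone, and the basal layer holds Wnt-responsive stem cells.

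On the mouse build GRCm38, annotated with GENCODE M21, all 10 were protein-coding genes. The plus strand of chromosome 4 held Wnt4 (ENSMUSG00000036856, bases 137277489 to 137299726) and Rspo1 (ENSMUSG00000028871, bases 124986430 to 125009099). Wnt5b (ENSMUSG00000030170) and Lrp6 (ENSMUSG00000030201) both lay on the minus strand of chromosome 6, from 119432531 to 119544347 and from 134446476 to 134566965. Wnt5a (ENSMUSG00000021994) occupied bases 28504750 to 28527448 of chromosome 14, plus strand, and Wnt7b (ENSMUSG00000022382) bases 85535437 to 85582473 of chromosome 15, minus strand. Wnt10a (ENSMUSG00000026167) lay on chromosome 1 from 74791516 to 74804179, Wif1 (ENSMUSG00000020218) on chromosome 10 from 121033960 to 121100650 and Sfrp1 (ENSMUSG00000031548) on chromosome 8 from 23411502 to 23449632, all on the plus strand. Lrp5 (ENSMUSG00000024913) lay on the minus strand of chromosome 19 from 3584828 to 3686564. Exons of the antisense genes Gm2670 and AU022754 overlapped exons of Wnt5a and Wnt7b, and whether the counting used strand is not given in the sources used here.

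The RefSeq promoter table (GRCm38.p6) held Wnt4, Wnt5b, Wif1 and Rspo1. Upstream sequence is shown for Wnt4, Wnt5b and Wif1, whose levels were highest in hormone-sensing, luminal progenitor and basal cells, 1 class each, in the results that follow. The 250 bases before each RefSeq start were searched on both strands for GCCNNNGGC, the palindromic site that AP-2 factors recognise, because the gene of an AP-2 factor was targeted in these mice. The RefSeq starts of Wnt4 and Wif1 lay downstream of the GENCODE starts given above, so only the 104 and 206 bases of their windows that precede the GENCODE start are printed. Capitals mark each match, and all sequences read 5′ to 3′ on the gene's own strand, at chr4:137277385-137277488 (plus), chr6:119544348-119544597 (minus) and chr10:121033754-121033959 (plus).
Wnt4: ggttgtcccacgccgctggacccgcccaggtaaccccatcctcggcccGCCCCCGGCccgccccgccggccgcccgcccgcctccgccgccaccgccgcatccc
Wnt5b: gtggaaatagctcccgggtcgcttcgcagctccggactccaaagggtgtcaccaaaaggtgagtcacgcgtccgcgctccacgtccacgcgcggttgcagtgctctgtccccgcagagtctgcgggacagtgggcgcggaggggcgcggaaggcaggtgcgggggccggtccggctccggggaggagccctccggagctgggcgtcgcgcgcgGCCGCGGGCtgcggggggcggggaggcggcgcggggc
Wif1: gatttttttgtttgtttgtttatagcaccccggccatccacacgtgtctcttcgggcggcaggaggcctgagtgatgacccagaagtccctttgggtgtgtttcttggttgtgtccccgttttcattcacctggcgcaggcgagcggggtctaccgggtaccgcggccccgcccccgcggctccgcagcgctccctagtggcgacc
Wnt4 and the most upstream of 3 Wnt5b starts each held 1 match; the other 2 Wnt5b windows, Wif1 and Rspo1 held 0. Of all 32851 promoter windows of this length, 13.7% held at least 1. The TCF/LEF letters CTTTGAT, the site of the factors that beta-catenin joins, occurred once, in the Wnt5b window at chr6:119449387-119449636, and in 3.21% of all windows. A match is a run of letters and not a measured binding site.

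The libraries held 3546 to 5545 cell barcodes and 17351950 to 22017878 unique molecular identifiers (UMIs, each 1 captured RNA molecule). Cells with at least 1000 UMIs were kept, 17832 of 18223 in all, at a median of 3092.5 to 5328 UMIs. A kept cell was called basal when its summed UMIs of Krt5, Krt14, Krt17 and Acta2 were at least 5 and above 3 times those of Krt8, Krt18 and Krt19, and luminal in the opposite case. Luminal cells were called hormone-sensing when Ly6d, Fxyd2 and Gpx3 together had at least 3 UMIs and more than Wfdc18, Csn3 and Ltf, and luminal progenitor otherwise. This gave 7028 basal, 5629 luminal progenitor and 1168 hormone-sensing cells, and left 2680 with mixed keratins and 1327 with few. Markers outside the rule followed the names: 8 basal markers such as Trp63 summed to 3864 to 5211 CPM (the count scaled to a library or class total of 1000000 UMIs) in basal sums and at most 265.9 CPM in luminal ones, and 7 hormone-sensing markers such as Esr1 and Pgr to 1216 to 2265 CPM in hormone-sensing sums against at most 135.2 CPM elsewhere. Luminal progenitor markers summed to 5730 to 8425 CPM in their own class and still to 1127 to 2632 CPM in basal sums. Pairs of libraries shared 18 to 36 barcodes. Basal sums held 388.6 and 285.4 CPM of Tfap2c with corn oil and 285.0 and 325.4 CPM with 4OHT (log2 fold change -0.08, SE 0.25, adjusted p = 0.999, edgeR), so the 2 groups overlapped; whether 3′ counts see the floxed segment is not given in the sources used here, and directions between the groups rest on their labels.

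UMIs were summed per library and class, and each level below is the CPM of that sum. Values of 4 libraries are given in the order corn oil 1, corn oil 2, 4OHT 1 and 4OHT 2. Classes were compared with edgeR's quasi-likelihood test over the 12 sums, with the library as a block and Benjamini-Hochberg adjustment over 11135 genes, and a gene was called at an adjusted p under 0.05. P-values measure only the spread between these 4 libraries. Of the 9 members that passed the filter on low counts, 4 were called higher and 2 lower in basal than in luminal progenitor cells, where 29.5% and 26.6% of all genes were called in those directions and 56.1% in either. Between hormone-sensing and luminal progenitor cells 3 were higher and 2 lower (21.9% and 24.6% of all genes, 46.4% in either). Between basal and hormone-sensing cells 4 were higher and 4 lower (32.4% and 27.3% of all genes, 59.8% in either). Over the 9 members the median log2 fold change was 0.28, -0.10 and 0.38 in these comparisons, beside 0.04, -0.02 and 0.08 over all genes. Rspo1 failed the filter. Wnt10a and Wif1 passed it through their basal counts alone, so their direction in these counts was set in advance.

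**Figure D1:**
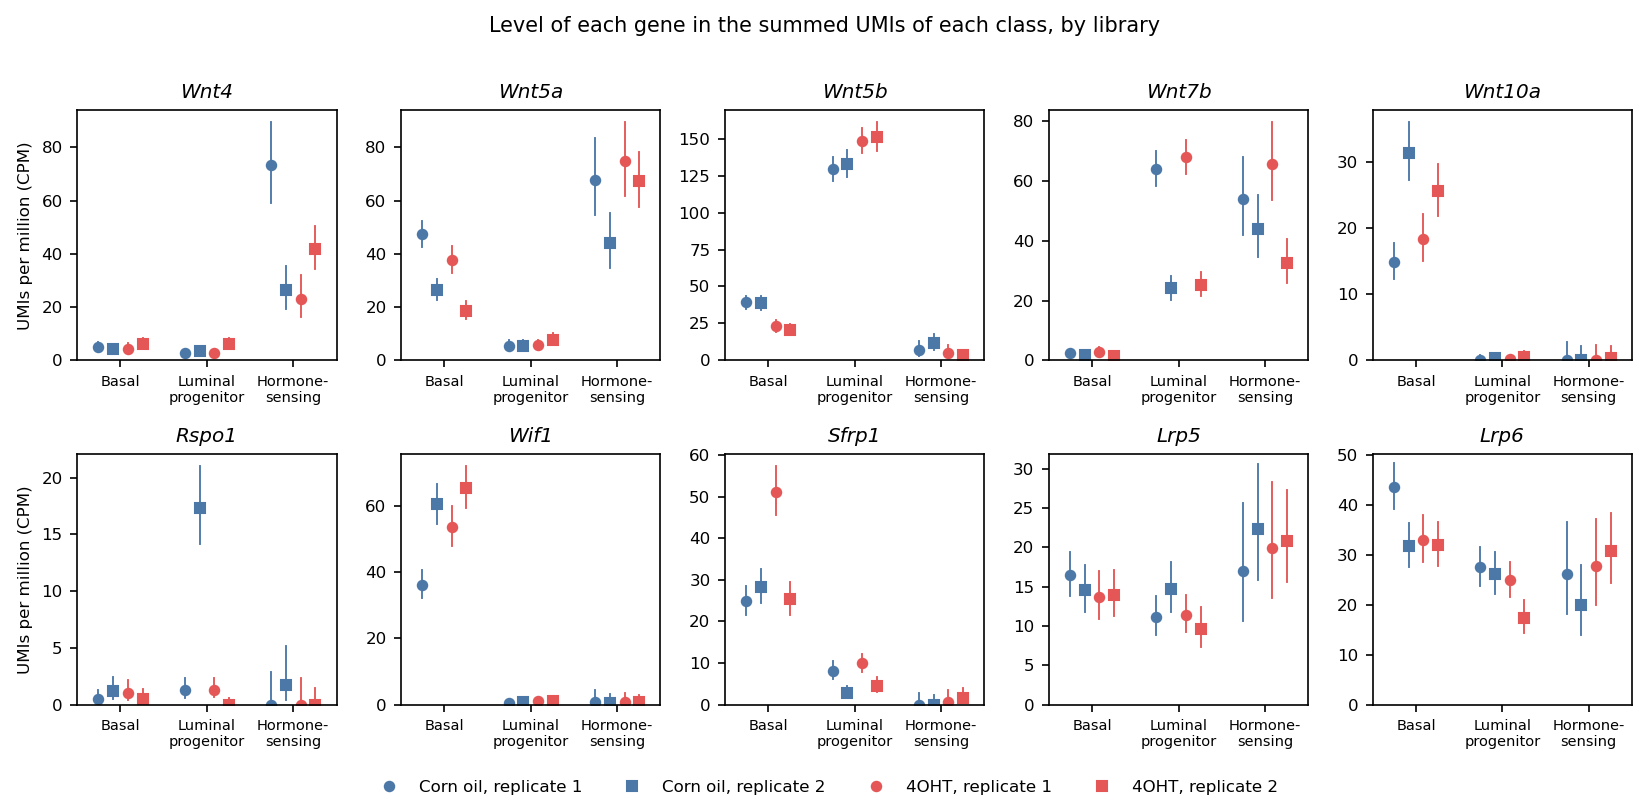
Level of each of the 10 genes in the summed UMIs of each class (vertical axis, CPM, on a separate scale for each gene), 1 point per library with its exact Poisson 95% interval, which covers counting error only; blue is corn oil and red 4OHT. Wnt4 is high in hormone-sensing sums, Wnt5b in luminal progenitor sums, and Wnt10a and Wif1 in basal sums, in all 4 libraries.

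Wnt4 was highest in the hormone-sensing class. Its level there was 73.2, 26.5, 23.2 and 41.7 CPM, from 36 to 106 UMIs a library. Basal sums held 4.94, 4.28, 4.38 and 6.22 CPM and luminal progenitor sums 2.75, 3.63, 2.62 and 6.28 CPM. The lowest hormone-sensing library was above every sum of the other classes, and the basal and luminal progenitor values overlapped. The log2 difference of hormone-sensing over luminal progenitor cells was 3.12 (SE 0.28, adjusted p = 1.84e-07, edgeR) and over basal cells it was as large (basal minus hormone-sensing -2.99, SE 0.27, adjusted p = 9.25e-08, edgeR). Basal and luminal progenitor cells differed by 0.12 (SE 0.29, adjusted p = 0.743, edgeR). The hormone-sensing values spread over more than those of any other class, 41.2 ± 22.9 CPM (SD, n = 4), and the highest and the lowest library belonged to different treatments.

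Wnt5a, the main ligand of the beta-catenin-independent branch, was shared by hormone-sensing and basal cells. Hormone-sensing sums held 67.8, 44.1, 74.7 and 67.3 CPM, basal sums 47.3, 26.3, 37.6 and 18.7 CPM and luminal progenitor sums 5.50, 5.45, 5.95 and 7.73 CPM. In every library the order was the same, hormone-sensing first and luminal progenitor last, although the lowest hormone-sensing value was under the highest basal one. The log2 difference from luminal progenitor cells was 3.11 (SE 0.23, adjusted p = 2.90e-08, edgeR) for hormone-sensing and 2.09 (SE 0.22, adjusted p = 7.85e-07, edgeR) for basal cells. Basal cells were lower than hormone-sensing cells by a smaller margin, a log2 difference of -1.02 (SE 0.21, adjusted p = 0.000465, edgeR).

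Wnt5b, the close relative of Wnt5a, had a different distribution. Luminal progenitor sums held 129.2, 132.8, 148.4 and 151.2 CPM, with 804 to 1247 UMIs in each library. Basal sums held 39.3, 38.7, 23.2 and 20.6 CPM and hormone-sensing sums 6.94, 11.8, 5.15 and 3.54 CPM. The 3 classes did not overlap. Basal cells were lower than luminal progenitor cells by a log2 difference of -2.53 (SE 0.22, adjusted p = 5.26e-08, edgeR) and hormone-sensing cells by -4.68 (SE 0.29, adjusted p = 4.16e-09, edgeR), and basal cells stood above hormone-sensing cells by 2.15 (SE 0.31, adjusted p = 1.67e-05, edgeR). Within the luminal cells, then, Wnt5a and Wnt5b ran in opposite directions in each of the 4 libraries.

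Wnt7b, a ligand of the beta-catenin branch, was found in both luminal classes. Luminal progenitor sums held 64.0, 24.1, 68.0 and 25.3 CPM and hormone-sensing sums 54.0, 44.1, 65.7 and 32.7 CPM, while basal sums held 2.47, 1.84, 2.86 and 1.37 CPM. Every luminal sum was above every basal sum, and the 2 luminal classes overlapped. Basal cells were lower than luminal progenitor cells by a log2 difference of -4.62 (SE 0.24, adjusted p = 1.63e-10, edgeR) and than hormone-sensing cells by -4.58 (SE 0.25, adjusted p = 3.33e-10, edgeR). Hormone-sensing and luminal progenitor cells differed by -0.04 (SE 0.19, adjusted p = 0.878, edgeR).

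The Wnt7b values of luminal progenitor cells separated the libraries by their replicate number and not by treatment. The libraries numbered 1 exceeded those numbered 2 by 1.40 log2 units under corn oil and by 1.42 under 4OHT. These are differences of log2 CPM with a prior count of about 1 UMI added to each sum. Sfrp1 in the same cells went the same way, by 1.48 and 1.11, and so did Wnt5a in basal cells, by 0.84 and 1.00. Other members ran the opposite way, Wnt10a in basal cells by -1.07 and -0.47 and Wif1 in basal cells by -0.74 and -0.29. Wnt10a in luminal progenitor cells differed by -0.75 and -0.72, but on only 8 UMIs over the 4 libraries, so no split is read from it. These differences are given as a description, with no test. The progesterone receptor gene Pgr ran opposite in luminal progenitor cells, at 2.20, 12.9, 3.00 and 14.7 CPM. The libraries numbered 1 were also deeper than those of the same group numbered 2, at a median of 5328 against 3663 UMIs a cell under corn oil and 4312 against 3092.5 under 4OHT. With every cell thinned to the same depth, Wnt7b was seen in 11.7% and 12.3% of luminal progenitor cells in the libraries numbered 1. In those numbered 2 it was seen in 6.65% and 4.62%. The cause of the split, depth and what goes with it included, was not tested. After the same thinning Sfrp1 was seen in 1.28%, 0.729%, 1.96% and 1.39% of luminal progenitor cells and Wnt5a in 7.59%, 4.86%, 5.65% and 3.22% of basal cells, again higher in the library numbered 1 of each group.

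Wnt10a, another ligand of the beta-catenin branch, was found almost only in basal cells. Basal sums held 14.8, 31.4, 18.4 and 25.5 CPM from 109 to 205 UMIs. Luminal progenitor sums held 1, 2, 2 and 3 UMIs, and hormone-sensing sums 0, 0, 0 and 1. Because Wnt10a passed the filter through its basal counts alone, its direction was set in advance. The log2 difference of basal over luminal progenitor cells was 5.89 (SE 0.29, adjusted p = 9.44e-11, edgeR). Basal over hormone-sensing cells was called too (adjusted p = 2.07e-09, edgeR), but with 1 UMI on the other side its fitted size depends on the prior count; the ratio of pooled UMIs was 157, with a counting interval from 28.1 to 6218.

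Rspo1, the secreted partner of the Lgr receptors that protects Frizzled receptors from the ubiquitin ligases Znrf3 and Rnf43, rested on 1 library. In luminal progenitor cells it had 9, 105, 11 and 0 UMIs, or 1.24, 17.3, 1.31 and 0 CPM. The corn oil 2 library thus held nearly all of them, spread over 85 of its 1132 luminal progenitor cells with at most 4 UMIs in a cell, while 5 of the 9 UMIs of corn oil 1 came from a single cell. The count of 0 in 4OHT 2 allows up to 0.483 CPM (3 counts). Basal sums held 3 to 8 UMIs a library and hormone-sensing sums 0, 3, 0 and 0. Rspo1 reached no main class test because of the filter. With no filter it was lower in basal than in luminal progenitor cells (-2.17, SE 0.45, adjusted p = 7.30e-06, edgeR). It was lower in hormone-sensing than in luminal progenitor cells too (-3.33, SE 0.68, adjusted p = 8.85e-06, edgeR). DESeq2 gave -1.30 (adjusted p = 0.238) and -3.01 (adjusted p = 0.0277). The luminal progenitor UMIs in these fits came nearly all from corn oil 2.

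Both secreted inhibitors were highest in basal cells. Wif1, which binds Wnt ligands directly, was at 36.2, 60.6, 53.7 and 65.6 CPM in basal sums, at 0.413 to 1.07 CPM in luminal progenitor sums and at 1 or 2 UMIs a library in hormone-sensing sums. Sfrp1, a secreted relative of the Frizzled ligand-binding domain, was at 24.8, 28.3, 51.2 and 25.3 CPM in basal sums and at 8.12, 2.81, 9.88 and 4.51 CPM in luminal progenitor sums, with 0, 0, 1 and 4 UMIs in hormone-sensing sums. The basal values of either gene did not overlap those of a luminal class. Wif1 was higher in basal than in luminal progenitor cells by a log2 difference of 5.78 (SE 0.21, adjusted p = 5.53e-12, edgeR), and Sfrp1 by 2.09 (SE 0.26, adjusted p = 3.35e-06, edgeR). Like Wnt10a, Wif1 passed the filter through its basal counts alone, so its direction in favour of basal cells was set in advance. Over hormone-sensing cells the fitted differences were 6.26 for Wif1 (SE 0.29, adjusted p = 5.66e-11, edgeR) and 5.44 for Sfrp1 (SE 0.49, adjusted p = 9.21e-08, edgeR), sizes that depend on the prior count because the hormone-sensing sums were near 0. Sfrp1 was also lower in hormone-sensing than in luminal progenitor cells (log2 difference -3.35, SE 0.60, adjusted p = 0.000256, edgeR), whereas Wif1 was not called there (-0.48, SE 0.54, adjusted p = 0.574, edgeR).

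The co-receptors varied least among the members. Lrp6 was at 43.6, 31.8, 33.0 and 32.0 CPM in basal, 27.5, 26.1, 24.9 and 17.4 CPM in luminal progenitor and 26.2, 20.0, 27.7 and 30.7 CPM in hormone-sensing sums. None of its 3 class differences passed: 0.28 (SE 0.15, adjusted p = 0.128, edgeR) for basal over luminal progenitor, -0.10 (SE 0.17, adjusted p = 0.679, edgeR) for hormone-sensing over luminal progenitor and 0.38 (SE 0.17, adjusted p = 0.0662, edgeR) for basal over hormone-sensing cells. The last passed in 2 alternatives, with no filter on low counts (adjusted p = 0.0370, edgeR) and without the cells of highest UMI count (adjusted p = 0.0439, edgeR). Lrp5 was at 17.0, 22.4, 19.96 and 20.9 CPM in hormone-sensing, 16.4, 14.5, 13.6 and 14.0 CPM in basal and 11.1, 14.7, 11.4 and 9.66 CPM in luminal progenitor sums. Its hormone-sensing values were above all others, by a log2 difference of 0.55 over luminal progenitor cells (SE 0.18, adjusted p = 0.0185, edgeR) and of 0.48 over basal cells (basal minus hormone-sensing -0.48, SE 0.17, adjusted p = 0.0255, edgeR). Both calls were lost when corn oil 2, 4OHT 1 or 4OHT 2 was left out in turn (adjusted p from 0.0519 to 0.114, edgeR), and with no filter on low counts (adjusted p = 0.105 and 0.135, edgeR). The call between basal and hormone-sensing cells was also lost with DESeq2 (adjusted p = 0.0655), and in edgeR without the cells of highest UMI count (adjusted p = 0.0557) and with a class ratio above 10 (adjusted p = 0.0545). Where that call was lost, the log2 difference of basal minus hormone-sensing cells lay between -0.52 and -0.39.

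**Figure D2:**
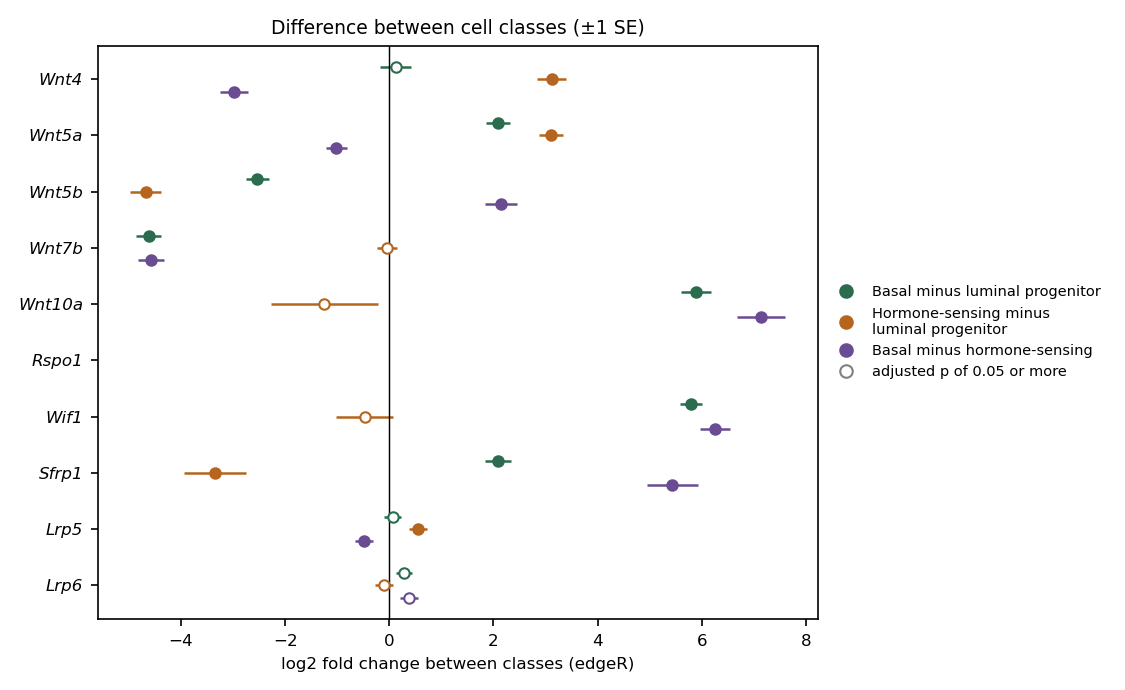
Log2 difference between cell classes for the members (horizontal axis, edgeR). Bars are ±1 SE, and filled points have an adjusted p under 0.05. Rspo1 failed the filter and has no point. Wnt10a and Wif1 lie near 6 on the basal side, Wnt7b beyond -4 on the luminal side, and Lrp5 and Lrp6 close to 0.

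Of the 6 fibroblast markers, Dcn alone was high in the hormone-sensing class. The 6 summed to 53.5 to 1346 CPM there, of which Dcn made 50.6 to 1325 CPM. The collagen genes Col1a1, Col1a2 and Col3a1 were at 0 to 1.29, 0 to 1.76 and 0 to 3.22 CPM, Lum at 0 to 6.44 CPM and Pdgfra at 0 to 8.37 CPM. By library Dcn was at 242.8, 50.6, 1325 and 236.6 CPM, highest in 4OHT 1, where Wnt4 was lowest and Wnt5a and Wnt7b were highest. Leukocyte markers summed to at most 103.0 CPM, also in 4OHT 1 and carried by Cd74, and pericyte markers to at most 12.9 CPM. Endothelial markers summed to 9.01 to 72.1 CPM. Without 4OHT 1 the log2 difference of hormone-sensing over luminal progenitor cells was 3.19 for Wnt4, beside 3.12 with it. With each library left out in turn, this difference ran from 3.01 to 3.23 for Wnt5a and from -0.31 to 0.15 for Wnt7b. Whether RNA of other cells adds to these levels was not tested. In 119 fibroblast-like cells among those with few keratin UMIs, Wnt4 and Wnt5a had 3 UMIs each and Wnt7b had 0. This was 6.67 CPM for Wnt4 and for Wnt5a, with a counting interval from 1.38 to 19.5 CPM. For Wnt7b the interval reached 8.20 CPM. Of these cells 82 came from corn oil 2 and 26 from 4OHT 1.

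The rest of the pathway was counted from a list of 71 further genes by role, of which 40 passed the filter. Relative to luminal progenitor cells, 27 of the 40 were called higher and 6 lower in basal cells, and 7 higher and 14 lower in hormone-sensing cells. Between basal and hormone-sensing cells, 31 were higher in basal cells and 4 lower. The median log2 difference over the 40 was 1.10, -0.50 and 2.06. With the members included, 8 of 12 tested receptors and co-receptors, 5 of 6 inhibitors and 4 of 5 genes of the R-spondin group were called higher in basal than in luminal progenitor cells, with none lower. In the same comparison 4 of 8 ligands were higher and 2 lower, 4 of 10 intracellular genes higher and 4 lower, 4 of 6 beta-catenin targets higher and 2 lower, and both secretion genes higher. Of all genes tested there, 29.5% were called higher and 26.6% lower. Between hormone-sensing and luminal progenitor cells these shares were 21.9% and 24.6%, and between basal and hormone-sensing cells 32.4% and 27.3%. The filter admits a gene on the counts of 1 class alone, so the direction of such a gene was set in advance. Wnt6, for example, had 239 UMIs in basal sums and 0 in hormone-sensing sums. The counts by class are therefore a description.

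Fzd7, a Frizzled receptor of the basal layer, led the receptors at a mean of 172.8 CPM in basal, 21.3 CPM in luminal progenitor and 10.7 CPM in hormone-sensing sums (basal over luminal progenitor 2.74, SE 0.15, adjusted p = 2.61e-10, edgeR). Fzd3 (2.08, SE 0.17) and the pseudokinase receptor Ptk7 (1.27, SE 0.18) were called in the same direction, and the Wnt5a receptor Ryk was higher in basal than in hormone-sensing cells (0.95, SE 0.17). Lgr4, a receptor of R-spondins, was at 38.1 CPM in basal sums, 9.26 CPM in luminal progenitor and 3.13 CPM in hormone-sensing sums, and Rnf43, a ligase that removes Frizzled receptors, was higher in basal than in luminal progenitor cells by 2.07 (SE 0.16). Rspo2, Rspo3 and Rspo4 averaged under 0.05 CPM in all 3 classes. Wls, needed to secrete any Wnt, was higher in both basal (1.68, SE 0.14) and hormone-sensing cells (1.45, SE 0.15) than in luminal progenitor cells, the class in which Wnt5b was highest.

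Genes that beta-catenin commonly raises did not all follow 1 class. Nkd1, a feedback inhibitor, was at 34.8 CPM in basal sums and under 1 CPM in both luminal classes (basal over luminal progenitor 5.29, SE 0.27). Axin2, the usual reporter of the pathway, was at 1.22 to 2.53 CPM in basal sums, at most 0.413 CPM in luminal progenitor sums and at 0 UMIs in all 4 hormone-sensing sums. Ccnd1, a cyclin with many other inputs, was lower in basal cells than in luminal progenitor cells (-2.02, SE 0.21) and than in hormone-sensing cells (-2.15, SE 0.22). Cd44 and Myc were lower in hormone-sensing than in luminal progenitor cells by -3.49 (SE 0.28) and -1.54 (SE 0.16). Inside the cell, Gsk3b was higher (0.80, SE 0.12) and Dvl1 and Apc lower (-1.02, SE 0.17, and -0.79, SE 0.17) in basal than in luminal progenitor cells, and Tcf7l2 was lower in hormone-sensing than in luminal progenitor cells (-1.52, SE 0.18). The adjusted p of the differences given for these receptors, secretion genes, targets and intracellular genes were at most 0.000868 (edgeR).

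**Figure D3:**
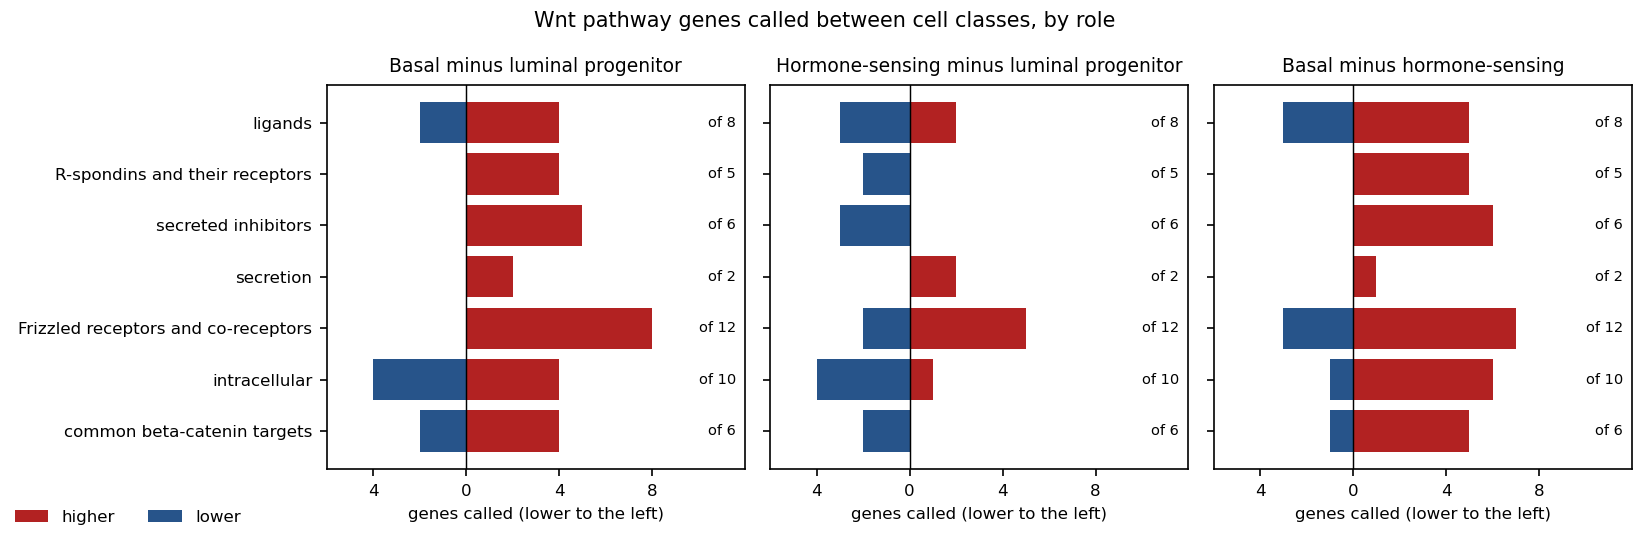
Number of Wnt pathway genes, members included, called higher (right, red) or lower (left, blue) in each class comparison, by role; the number tested is printed at the right of each row. The inhibitors and the R-spondin group have no gene called lower in basal cells.

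The genes whose levels followed each member most closely over the 12 sums were ranked by Pearson's r of log2(CPM + 1) among 6165 genes, as a description: the sums share libraries and classes, and r ran from 0.908 to 0.998 for the 3 nearest of each member. For Wnt10a these were Actg2, Cxcl14 and Wif1 (r of 0.995 to 0.996), so 1 member was among the nearest genes of another. Wif1 itself was nearest to Krt14 and Acta2, which the class rule used, and to Cnn1 (0.997). Sfrp1 was nearest to Adamts1, Serpinb5 and Orc4. Wnt4 was nearest to Alg14 (0.978), Upk3a and Celf4, and Wnt5a to Man1a (0.974), Zcchc24 and Sh3d19. Wnt5b was nearest to Frat2 (0.980), Tmem248 and Cd81, and Wnt7b to Marveld3 (0.982), Rhpn2 and Inhbb. For the co-receptors the values were lower: Jtb (0.959), Dnpep and Ankra2 for Lrp5, and Abcd3 (0.945), Rnf146 and 4932438A13Rik for Lrp6.

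Sums do not say how many cells hold a transcript, so each cell was thinned to 2000 UMIs and the share with at least 1 UMI was taken, leaving out 707 basal, 354 luminal progenitor and 19 hormone-sensing cells that were shallower. Wnt5b was seen in 22.2%, 20.5%, 23.1% and 24.1% of luminal progenitor cells, with an exact 95% interval for the first of 19.9% to 24.6%. Wnt7b was seen in 11.7%, 6.65%, 12.3% and 4.62% of the same cells. Wnt5a was seen in 13.9%, 7.67%, 14.4% and 12.4% of hormone-sensing cells and in 3.22% to 7.59% of basal cells.

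Wnt4 was seen in 11.3%, 3.68%, 3.39% and 7.80% of hormone-sensing cells, and the interval of corn oil 1 (6.70% to 17.4%) did not overlap those of corn oil 2 (1.92% to 6.34%) and 4OHT 1 (1.47% to 6.57%). Wif1 was seen in 6.43%, 10.5%, 7.86% and 10.7% of basal cells and in 0 of 1149 hormone-sensing cells, which allows up to 0.261%. Without thinning the ranges were higher, 38.0% to 40.9% for Wnt5b in luminal progenitor cells, 12.5% to 37.1% for Wnt4 and 16.4% to 39.1% for Wnt5a in hormone-sensing cells, and 12.8% to 14.0% for Wif1 in basal cells. Endothelial-like cells, which should lack most of these ligands, served as the background: of 115 such cells thinned alike, 2 had a Wnt4 UMI (1.74%), 3 a Wnt5b UMI (2.61%), 1 each a Wnt5a or Wnt7b UMI (0.870%) and 0 a Wnt10a or Wif1 UMI, which allows up to 2.61%. Their median depth was 1880 to 3378 UMIs before thinning. The shares of Wnt4 in basal and luminal progenitor cells, 0.368% to 1.17%, were not above that background and are not read as expression. The counting interval of the endothelial Wnt4 share, 0.211% to 6.14%, held them all. For the endothelial Wnt5b share the interval was 0.541% to 7.43%. Wnt5b in hormone-sensing cells, at 0% to 1.99%, was not above it either and is not read as expression. For Lrp5 and Lrp6 the endothelial shares were 4.35% and 1.74%, and the 3.31% to 3.68% of hormone-sensing cells with Lrp5 lay within counting error of the former.

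**Figure D4:**
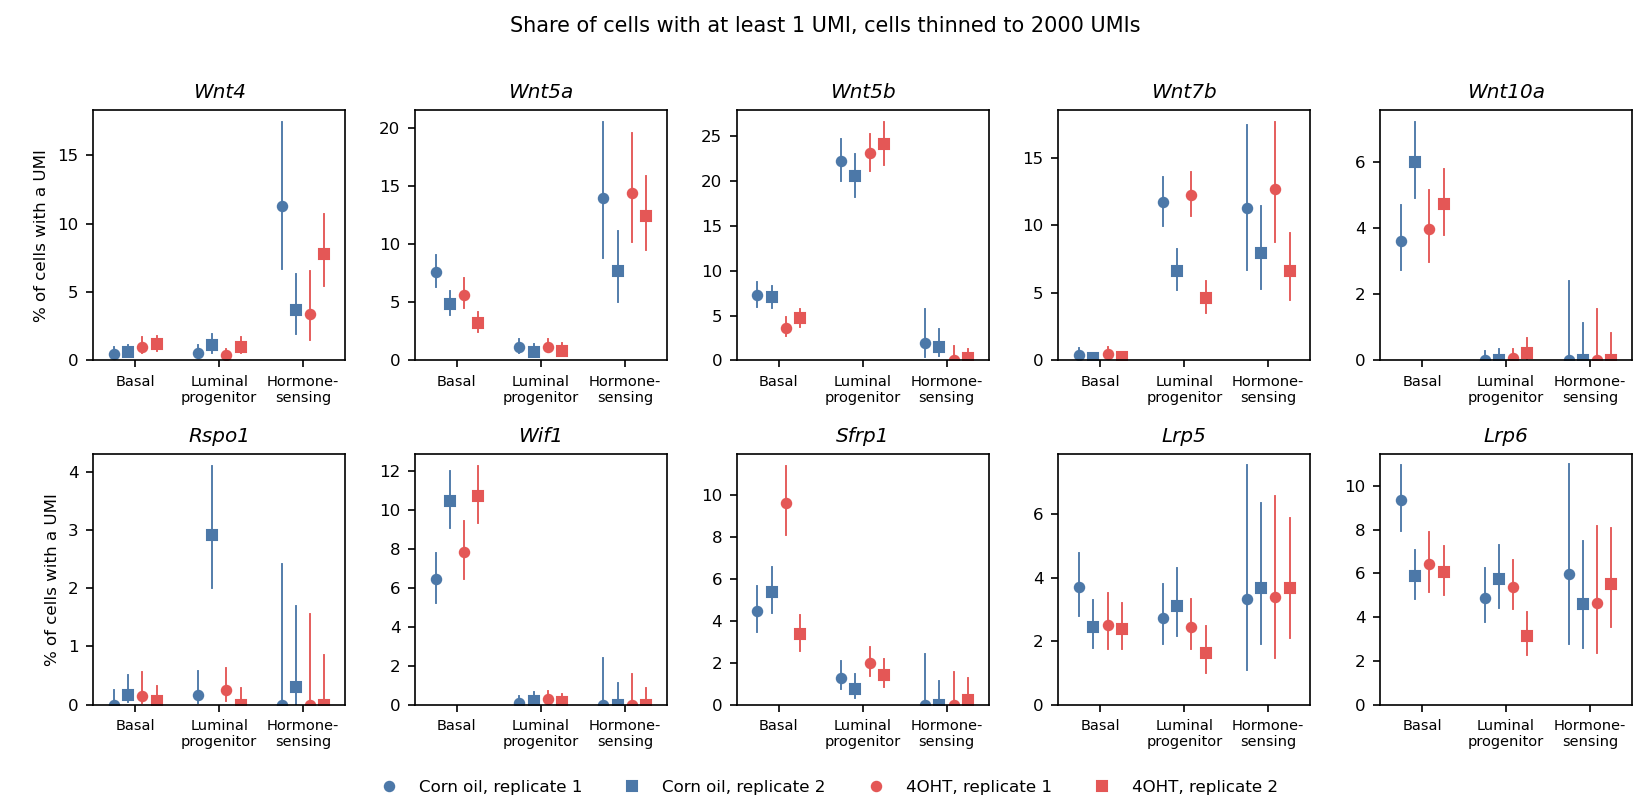
Share of cells with at least 1 UMI of each gene after thinning every cell to 2000 UMIs (vertical axis, percent; separate scales), per class and library, with exact 95% binomial intervals; blue is corn oil and red 4OHT. Wnt5b is seen in 20.5% to 24.1% of luminal progenitor cells in all 4 libraries, and Wnt7b splits the libraries by replicate number.

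Among hormone-sensing cells, Wnt4 and Pgr were not seen together more often than apart. After thinning, Wnt4 was seen in 6.90%, 3.13%, 1.54% and 6.93% of cells with a Pgr UMI and in 12.3%, 3.91%, 4.09% and 8.06% of cells without one. The share was lower with Pgr in all 4 libraries, on 1 to 7 cells with both in each. Wnt5b was seen in 29.5%, 21.9%, 28.5% and 21.7% of luminal progenitor cells with a Wnt7b UMI and in 21.2%, 20.4%, 22.3% and 24.2% of those without, higher in 3 of the libraries and lower in 4OHT 2. No test was made of these shares over cells.

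Without pairing of the libraries, no member was called between 4OHT and corn oil in any class. edgeR called 0 of 9 members in basal cells (0% of all 10788 genes), 0 of 7 in luminal progenitor cells (0% of 10120) and 0 of 6 in hormone-sensing cells (0.0132% of 7589). In sums over all cells it called 0 of 10 (0% of 12972 genes). DESeq2 called 0 of the 10 members in each of these comparisons as well. At an unadjusted p under 0.05, edgeR had 1 member in basal cells, Wnt5b, and 0 in each of the others, and over all genes 465 in basal, 166 in luminal progenitor, 240 in hormone-sensing cells and 271 in all cells. With 2 libraries against 2, an exact permutation test of a single gene cannot go below p = 0.333. The SEs of the members' fold changes within the classes ran from 0.24 to 0.55 log2 units. A change of that size was not detectable with these libraries, and larger ones could go uncalled as well. In basal cells the smallest adjusted p of any gene was 0.209 (edgeR).

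Wnt5b came nearest. Its basal levels, 39.3 and 38.7 CPM with corn oil, were both above the 23.2 and 20.6 CPM with 4OHT, a log2 fold change of -0.79 (SE 0.24, adjusted p = 0.999, edgeR). The thinned shares of basal cells with a Wnt5b UMI, 7.25% and 7.03% against 3.66% and 4.67%, did not overlap either. All of these shares lay within the counting interval of the endothelial share, 0.541% to 7.43%. In CPM the endothelial interval, 4.11 to 24.3, held the basal values with 4OHT and not those with corn oil. The basal shares could thus not be placed above that background. Hormone-sensing cells had 6.94 and 11.8 against 5.15 and 3.54 CPM (-1.21, SE 0.55, adjusted p = 1.00, edgeR), on 8 to 20 UMIs a library. Their shares of cells could not be placed above the endothelial background, so no change is read from them. In luminal progenitor cells, where Wnt5b was highest, the 4OHT values were the higher ones, 148.4 and 151.2 against 129.2 and 132.8 CPM (0.29, SE 0.26, adjusted p = 1.00, edgeR). The test of the difference between classes gave -1.09 for basal minus luminal progenitor cells (SE 0.28, adjusted p = 0.858, edgeR) and -1.53 for hormone-sensing minus luminal progenitor cells (SE 0.45, adjusted p = 0.999, edgeR). The same test called 0 of 9 members either way, and 0% and 0.00898% of all 11135 genes. At an unadjusted p under 0.05 (edgeR) it had 1 and 2 of the 9 members, beside 449 and 442 of all 11135 genes. DESeq2 called 0 of 10 members in both.

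A few other members had groups that did not overlap, in numbers to be read beside all genes. In basal cells these were Wnt5b and Lrp5, 2 of 9 members, where 30.7% of all genes did so; Lrp5 went from 16.4 and 14.5 to 13.6 and 14.0 CPM (-0.11, SE 0.26). In luminal progenitor cells 3 of 7 did so (24.9% of all genes): Wnt5b, Wnt5a, from 5.50 and 5.45 to 5.95 and 7.73 CPM (0.41, SE 0.38), and Lrp6, from 27.5 and 26.1 to 24.9 and 17.4 CPM (-0.26, SE 0.31). The Wnt5a shares of luminal progenitor cells could not be placed above the endothelial background, so no change of Wnt5a is read there. In hormone-sensing cells 2 of 6 did so (30.5%): Wnt5b, at background level there, and Lrp6 from 26.2 and 20.0 to 27.7 and 30.7 CPM (0.32, SE 0.33). Wnt5a in basal cells overlapped, 47.3 and 26.3 against 37.6 and 18.7 CPM (-0.36, SE 0.38), and so did Wnt4 in hormone-sensing cells, 73.2 and 26.5 against 23.2 and 41.7 CPM (-0.59, SE 0.46). All adjusted p in this paragraph were 1.00 to 2 decimals (edgeR).

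**Figure D5:**
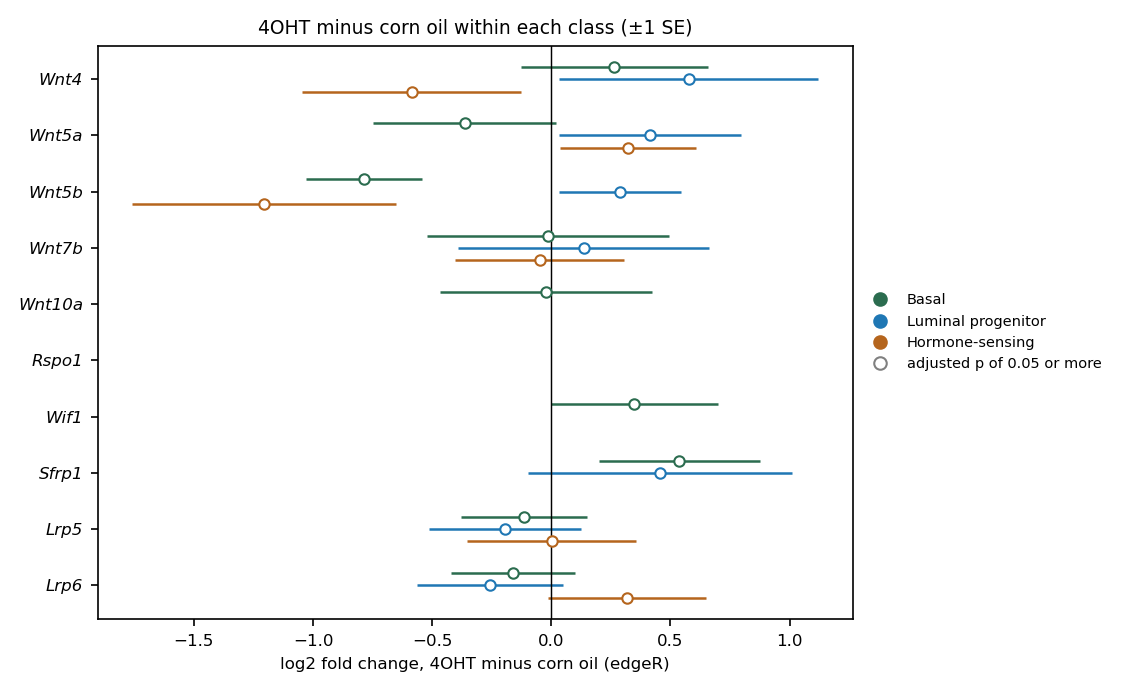
Log2 fold change of 4OHT over corn oil within each class (horizontal axis, edgeR; bars are ±1 SE; open points have an adjusted p of 0.05 or more, which all do). Members that failed the filter in a class have no point. Wnt5b lies below 0 in basal cells and above 0 in luminal progenitor cells; its hormone-sensing point rests on 8 to 20 UMIs a library.

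Sums over all cells mix the classes, and there fewer cells of a class and less RNA per cell cannot be told apart. Lrp5 was the only member of the 10 whose all-cell groups did not overlap (26.6% of all genes), at 16.4 and 15.9 against 13.8 and 13.6 CPM (-0.17, SE 0.20, adjusted p = 1.00, edgeR). Rspo1 was at 0.700, 7.58, 0.913 and 0.205 CPM over all cells (-2.83, SE 1.27, adjusted p = 1.00, edgeR), carried by the luminal progenitor cells of corn oil 2. With no filter on low counts, Rspo1 in luminal progenitor cells was called lower with 4OHT (-3.53, SE 0.55, adjusted p = 1.91e-07, edgeR), while DESeq2 did not call it (-3.75, SE 2.58, adjusted p = 1.00). Without corn oil 2, the luminal progenitor sums left were 9 UMIs with corn oil and 11 and 0 with 4OHT.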

How the data were processed

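The authors deposited, per library, a filtered matrix of UMI counts per gene and cell barcode, made with Cell Ranger 3.0.1 on mm10, per the submitters' processing notes; the counts are raw. Cells were kept and classed as described above, and no doublet caller was run: the cells of highest UMI count (0.8% of a library per 1000 cells, 682 in all) were left out as an alternative. UMIs were summed per library and class and tested with edgeR 4.0.16 (TMM, filterByExpr, quasi-likelihood, R 4.3.3; SE is the fold change over the root of F). Treatments were compared within a class over its 4 sums, without pairing; class and interaction fits took 12 sums. DESeq2 1.42.0 was an alternative, as were no filter, other cell minimums, a class ratio above 10 and leaving out each library. The tests were checked on simulated counts. Intervals are exact Poisson or Clopper-Pearson (95%) and cover counting error only, and the floor for 0 is 3 counts. Promoters are from RefSeq.

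The members, the pathway list and the markers were chosen with earlier results of these data known. All 10 members are named; of the other pathway genes, at most the 3 with the largest called class difference per role at a mean of at least 10 CPM, and, as most alike, the 3 genes of highest r for members at a mean of at least 5 CPM. Axin2, Rspo2, Rspo3 and Rspo4 are named outside this rule, after their values were seen.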

Additional observations from a re-analysis of the deposited data

How the results depend on the processing

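Of the members' class differences under the alternatives, 306 kept their direction and their side of the threshold, 11 lost a call, 2 gained one and 5 changed sign. Of the members' treatment differences, none of them called, 326 kept both, 45 changed sign and 1 gained a call. These tallies hold only members that passed the filter in the main fit of a comparison. Calls of Rspo1 in luminal progenitor cells or between classes are therefore not among them. The counts of genes called between treatments over all genes were small and moved with the setting, and the cause was not tested. With no filter on low counts they were 93 in basal, 39 in luminal progenitor and 59 in hormone-sensing cells, and 39 and 35 for the interactions of basal and hormone-sensing with luminal progenitor cells. DESeq2 called 36 in basal and 1 in luminal progenitor cells and 14 in all cells. A class ratio above 10 gave 1 in luminal progenitor cells, and a minimum of 2000 UMIs gave 0 in hormone-sensing cells. The hormone-sensing interaction had 0 with DESeq2 size factors and 0 without the cells of highest UMI count.

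Leaving out 1 library gave 17 to 127 calls in basal, 31 to 64 in luminal progenitor and 4 to 80 in hormone-sensing cells, 0 to 7 for the basal interaction and 0 to 6 for the hormone-sensing one; the lone library is then assumed to vary like the other group. Among members it moved Lrp5 in basal cells from -0.22 to 0.0009, Wnt5a in basal cells from -0.82 to 0.059 and Wnt4 in hormone-sensing cells from -1.12 to 0.20 (4OHT minus corn oil). Between classes it moved Lrp5 from -0.042 to 0.14 and Wnt4 from -0.012 to 0.27 (basal minus luminal progenitor), and Wnt7b from -0.31 to 0.15 (hormone-sensing minus luminal progenitor), none of them called. Rspo1 in luminal progenitor cells passed the filter in 3 of these fits. It was called lower with 4OHT without corn oil 1 (-4.44) and without 4OHT 1, where the 4OHT side had 0 UMIs and no size is given, and was not called without 4OHT 2 (-2.73, adjusted p = 0.129, edgeR).

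With the replicate number as a block, edgeR called 167 genes in basal, 9 in luminal progenitor and 3 in hormone-sensing cells, and Wnt5b in basal cells had an adjusted p of 0.0480. Deviations of same-numbered libraries correlated at 0.56 in basal, 0.32 in luminal progenitor and 0.22 in hormone-sensing cells, but with 2 pairs and no label of a shared source the numbers were not taken as a pairing. Thinning sets the level of a share: without it the mean shares were 39.2% (Wnt5b) and 17.7% (Wnt7b) of luminal progenitor cells, 20.5% (Wnt4) and 28.4% (Wnt5a) of hormone-sensing cells and 13.6% (Wif1) of basal cells, and at 1000 UMIs they were 12.6% for Wnt5b, 4.80% for Wnt7b, 5.58% for Wnt5a and 5.34% for Wif1. Depth limits Wnt10a, Wif1, Sfrp1 and Rspo1 in hormone-sensing cells, where a library holds 0 to 4 UMIs of each.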

Other observations

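Cells outside the 3 classes also held the members. In cells with mixed keratin UMIs, Wnt5b was at 31.2, 44.1, 24.96 and 26.1 CPM and Wnt10a at 13.8, 17.4, 6.19 and 12.7 CPM. In the same cells Wnt4 was at 5.44, 4.68, 2.71 and 3.94 CPM, Lrp5 at 27.2, 18.1, 16.1 and 12.7 CPM and Lrp6 at 39.5, 38.8, 36.0 and 31.5 CPM. The members named so far are those whose groups did not overlap in these cells. The share of all genes that did so was not computed here, so no effect of 4OHT is read from this list. Within the classes that share was 24.9% to 30.7%. The other members overlapped. Wnt5a ran from 20.7 to 54.4 CPM with corn oil and from 25.8 to 60.2 CPM with 4OHT. Wif1 ran from 14.7 to 16.0 and from 8.90 to 15.5 CPM, and Sfrp1 from 7.36 to 28.3 and from 8.19 to 16.8 CPM. Wnt7b ran from 2.01 to 6.53 and from 2.73 to 6.39 CPM, and Rspo1 from 0.363 to 3.34 and from 0.303 to 0.387 CPM. In cells with few keratin UMIs, Wnt5a was at 78.6 CPM in corn oil 1 and at 12.7 to 21.96 CPM in the other libraries. These cells are of mixed origin, no test was made of them, and their shares of the kept cells differed between libraries: those with mixed keratins made 12.2% and 8.46% of the corn oil libraries and 20.2% and 17.6% of the 4OHT libraries.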
